A study of Mus musculus with 13 samples.

Results

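The sites described here are places where cohesin was called in every STAG1 and every STAG2 library of NU1 cells and CTCF was called in none. Peaks on the 19 autosomes of all 12 deposited lists were merged into sites by an overlap of at least 1 bp, and a site was kept when it held a peak from each of the 4 STAG1 and 4 STAG2 lists and from none of the 4 CTCF lists. The rule kept 713 of 112325 sites, which is 3.33% of the 21383 sites held in all 8 STAG lists. Of the remaining sites in all 8 STAG lists, 18042 also held a peak from all 4 CTCF lists and 2628 held one from 1 to 3 of them. The sites were chosen by the authors' peak calls in these 12 libraries, so the presence of STAG1 and STAG2 and the lack of CTCF are given as the definition of the set and not as results.

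NU1 is a mouse urothelial line that became immortal on its own during serial passage, and its genotype is given as WT. Chromatin was precipitated with antibodies against STAG1, STAG2 or CTCF from proliferating cells and from cells made quiescent by confluence, 0.5 uM erlotinib, an inhibitor of the EGF receptor, and 1 uM rosiglitazone, an agonist of PPAR gamma. Each of the 6 groups of antibody and state had 2 biological replicates, and every precipitation used 25 ug of antibody. All groups come from 1 immortal line, and confluence and both drugs were applied together, so their shares cannot be told apart. Each protein was precipitated with its own antibody. A difference between STAG1 and STAG2 libraries therefore cannot be told apart from a difference between the antibodies. A sample titled input was not analysed here, and its antibody label reads IgG, so the kind of background behind the enrichment values is not known. The STAG lists held 33745 to 49647 autosomal peaks, and the longest was that of STAG1 in proliferating cells, replicate 2. The lists hold no read totals, so sequencing depth is unknown. Of 13 urothelial marker genes with a listed start, 10 had a site of all 8 STAG lists at the start, among them Krt5, Krt7, Upk1a, Gata3, Elf3 and Foxa1, and 3 (Upk3a, Upk3b and Grhl3) did not. Such a site was also at 1 of 3 fibroblast markers (Pdgfra), 1 of 3 neuronal markers (Map2) and 0 of 4 immune markers, and a peak at a start is not a measure of expression. The share of all genes with such a site at a start was not counted, so these counts are not read as particular to a cell type.

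Cohesin is a ring-shaped complex that extrudes loops of chromatin and holds sister chromatids together, and each ring carries either STAG1 or STAG2. CTCF, a zinc finger protein bound to an oriented motif, stops moving cohesin, so most stable cohesin peaks in mammalian cells coincide with CTCF. Cohesin is also found without CTCF at active enhancers and promoters, where the loader NIPBL, Mediator and lineage transcription factors bind, and STAG2 is known for a larger part at such sites than STAG1. STAG2 is recurrently mutated in cancer of the urothelium.

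The upstream sequences of 4 gene starts that lay within a CTCF-free stable site are shown because these starts carry the results below. Among windows that overlap no other annotated gene, Arrdc4 and Tcp11l2 are the starts with the lowest adjusted p for a higher rank in STAG2 than in STAG1, Prorsd1 is that for the reverse, and Cish is among the 20 starts of highest mean percentile, at 46.7. Each run is the 250 bases upstream of the start, 5′ to 3′ on the gene's own strand, from RefSeq with build GRCm38.p6, which is mm10. Arrdc4 is read from the minus strand (chr7:68749239-68749488), Tcp11l2 from the plus strand (chr10:84576697-84576946), Prorsd1 from the minus strand (chr11:29515034-29515283) and Cish from the plus strand (chr9:107296409-107296658). Capitals mark the CCAAT box, the GC box GGGCGG and the E-box CACGTG on either strand.
Arrdc4: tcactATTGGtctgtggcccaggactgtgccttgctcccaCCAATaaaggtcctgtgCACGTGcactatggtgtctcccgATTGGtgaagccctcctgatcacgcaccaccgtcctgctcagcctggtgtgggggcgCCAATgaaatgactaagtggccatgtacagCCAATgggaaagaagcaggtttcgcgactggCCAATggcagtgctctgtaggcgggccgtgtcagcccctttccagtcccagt
Tcp11l2: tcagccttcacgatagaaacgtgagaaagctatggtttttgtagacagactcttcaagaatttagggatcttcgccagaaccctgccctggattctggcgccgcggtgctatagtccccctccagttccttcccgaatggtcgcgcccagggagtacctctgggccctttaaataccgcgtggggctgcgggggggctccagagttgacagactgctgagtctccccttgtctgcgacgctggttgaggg
Prorsd1: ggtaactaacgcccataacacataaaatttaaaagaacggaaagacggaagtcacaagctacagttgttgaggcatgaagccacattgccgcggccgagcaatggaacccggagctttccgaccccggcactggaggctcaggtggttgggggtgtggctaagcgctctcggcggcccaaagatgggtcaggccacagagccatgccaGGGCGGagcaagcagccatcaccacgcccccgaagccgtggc
Cish: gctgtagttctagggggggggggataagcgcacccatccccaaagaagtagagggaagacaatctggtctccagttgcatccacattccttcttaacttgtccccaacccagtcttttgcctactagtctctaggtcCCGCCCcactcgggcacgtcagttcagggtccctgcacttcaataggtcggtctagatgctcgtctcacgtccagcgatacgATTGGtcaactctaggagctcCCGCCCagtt
The Arrdc4 run held 6 CCAAT boxes and 1 CACGTG, the Tcp11l2 run held 0 of the marked motifs, the Prorsd1 run held 1 GC box, and the Cish run held 1 CCAAT box and 2 GC boxes. Of the other motifs searched in these 4 runs, a TEAD motif, GGAATG, was found 1 time, in Cish. The CTCF core motif was found 0 times in the 4 runs.

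At the CTCF-free stable sites cohesin was called at low enrichment in every library. The median fold enrichment over background, as the authors' peak caller gave it, was 6.75 and 8.67 in STAG1 proliferating replicates 1 and 2, and 6.0 and 6.49 in the STAG1 quiescent replicates. The median was 9.67 and 8.0 in the STAG2 proliferating replicates, and 8.30 and 8.50 in the STAG2 quiescent replicates. At the 18042 sites with CTCF in all 4 lists the medians of the same libraries ran from 12.9 to 17.5. The ratio of the median at CTCF-free sites to that at CTCF sites was 0.418 to 0.620, lowest in STAG1 quiescent replicate 1 and highest in STAG2 proliferating replicate 2. Strength bears on which sites are called in all 8 lists, so these values describe the set.

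**Figure D1:**
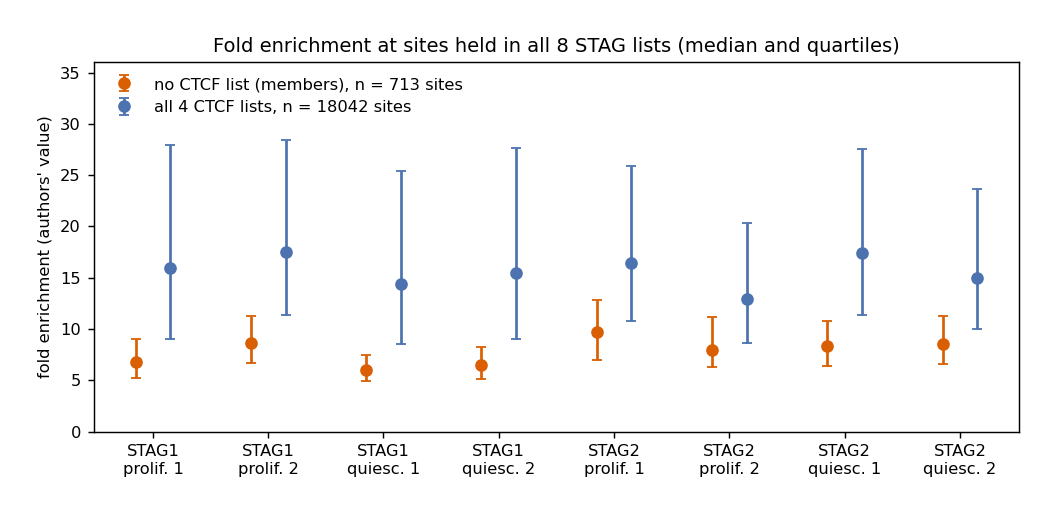
Fold enrichment given by the authors' peak caller (linear axis) in each of the 8 STAG libraries for the 713 sites with no CTCF call and the 18042 sites with CTCF in all 4 lists. Points are medians and bars run from the lower to the upper quartile over sites, and the CTCF-free medians lie between 6.0 and 9.67 while the CTCF medians lie between 12.9 and 17.5.

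Neighbouring sets show where the rule's edge lies. At 578 sites of all 8 STAG lists a single CTCF list had a peak, with a median fold of 4.69 and a median −log10 q of 5.39 for that peak, and their mean STAG fold had a median of 8.41 against 8.08 for the CTCF-free sites. The lone CTCF peak came from proliferating replicate 1 at 249 sites, proliferating replicate 2 at 153, quiescent replicate 1 at 43 and quiescent replicate 2 at 133. At 627 CTCF-free sites exactly 1 STAG list was missing, most often STAG1 quiescent replicate 1 (257 sites) or replicate 2 (156), and the median of their mean fold was 7.03. Within the kept sites the lowest −log10 q over the 8 libraries had a median of 6.12 and a minimum of 1.35.

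The summits of the CTCF-free stable sites were less sharply placed than those of the CTCF sites. The median width of the CTCF-free sites was 817 bp, with a range of 467 to 3302 bp, and it was not compared with that of CTCF sites, whose extent includes their CTCF peaks. The distance between the outermost of the summits from the 8 libraries had a median of 162 bp, against 81 bp at those sites. It was 196 bp at sites with CTCF in 1 to 3 lists, so the wider spread was not particular to CTCF-free sites. The nearest CTCF peak of any list lay at a median of 4.97 kb, with quartiles of 1.55 and 13.3 kb, and 67.9% of the sites had one within 10 kb. A CTCF peak stood within 1 kb of 135 sites, without overlapping them. The sites farthest from CTCF lay on chromosome 12 near Gm46320 at 321 kb, on chromosome 15 nearest to Myc at 232.9 kb, at the starts of 2610001J05Rik and Gpr85 on chromosome 6 at 191.6 and 160.6 kb, and nearest to Gata3 at 155 kb. The last of these stood 236 kb from Gata3 itself.

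Most CTCF-free stable sites lay away from gene starts. A start counted as held when the site lay within 1 kb of it. Of the 695 sites on autosomes with listed starts, 160 were at a start, or 23.0% (95% Wilson interval 20.05 to 26.3). The share was 33.2% for sites with all 4 CTCF lists, 44.6% for those with 1 to 3, and 6.68% for CTCF-free sites found in only 1 to 7 STAG lists. Over all sites it was 11.6%, so most sites of every set named here lay away from starts. The interval covers counting error only, and the start table lists 79.6% of the protein-coding genes. Overlap with a protein-coding gene was found for 401 sites, or 56.2%, against 12629 of the 18042 CTCF sites. It was found for 58.5% of the CTCF-free sites in 1 to 7 STAG lists and 60.6% of all sites. The median distance to the nearest end of a protein-coding gene was 15.2 kb, against 2.81 kb at the CTCF sites and 10.6 kb over all sites. More than 50 kb from such an end were 201 sites, or 28.2%, against 9.61% of the CTCF sites and 17.6% of all sites. The share at starts was 32.2% of 748 sites when only peaks with a −log10 q of at least 5 were used in all lists, and 54.7% of 1052 sites when every list was shortened to its 20000 peaks of highest fold. Both settings changed the STAG and the CTCF lists together, so the part of each was not tested. The share was 28.5% without CTCF proliferating replicate 2.

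**Figure D2:**
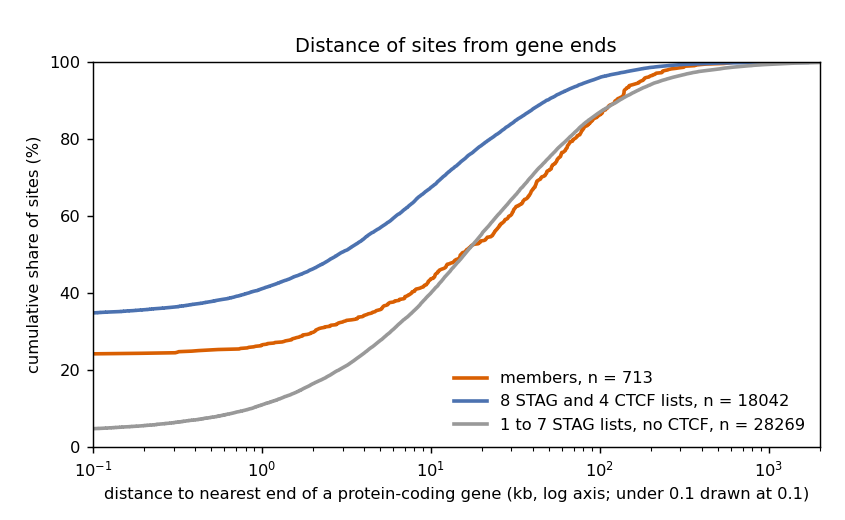
Cumulative share of sites (vertical axis, percent) within a given distance of the nearest end of a protein-coding gene (horizontal log axis, kb, with distances under 0.1 kb drawn at 0.1) for 3 sets of sites. The curve of the 713 CTCF-free stable sites starts between the other curves and then runs near that of the 28269 CTCF-free sites in fewer STAG lists, with a median of 15.2 kb against 2.81 kb for sites with CTCF.

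Most of the strongest CTCF-free sites, like most of the set, were not at a listed start. Folds were compared between libraries only as percentiles, that is the rank of a site among the 21383 sites of all 8 STAG lists within each library, where the median of all sites is 50. The highest mean percentile over the 8 libraries, 69.3, belonged to a site at chr9:49980647-49981352, 181 kb from Ncam1, a neural cell adhesion gene. Its folds were 15.0, 25.4, 16.5 and 13.0 in the STAG1 libraries, taken here and below in the order proliferating 1 and 2, then quiescent 1 and 2, and 25.5, 20.5, 23.0 and 29.9 in the STAG2 libraries. Next came a site 61.0 kb from Tle3, a Groucho-family corepressor (mean percentile 68.4), and a site 392 kb from Prl5a1 (64.1). The Prl5a1 site stood 0.264 kb from a CTCF peak, with percentiles of 83.1, 76.8, 67.4 and 63.9 in STAG1 and 78.8, 53.2, 38.4 and 50.9 in STAG2. Other sites among the 10 highest were at the start of Arrdc4, within Hdgf, a growth factor gene, within Smad3, and near Btbd3, Phlda1 and Hs1bp3. Of these 10 sites, 1 was at a listed start, where the share over the CTCF-free stable sites was 23.0%. Nothing is read from a count this small about the strongest sites.

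At gene starts the highest mean percentiles after Arrdc4 were those of Ube2e2, a ubiquitin-conjugating enzyme (52.5), Ankef1 (49.3) and Cish, an inhibitor of cytokine receptor signalling (46.7). Folds at Ube2e2 were 9.0, 11.0, 15.8 and 17.3 in STAG1 and 17, 12.2, 20.6 and 16.5 in STAG2. Both quiescent STAG1 libraries lay above both proliferating ones there in percentile (61.0 and 61.1 against 31.7 and 30.2), while the STAG2 percentiles ran from 51.8 to 65.0. Folds at Cish were 8.19, 17.7, 9.05 and 12.5 in STAG1 and 11.6, 14.7, 19.8 and 12.9 in STAG2, so the antibodies overlapped. Starts with lower ranks among the 20 highest included those of Ctnnbl1, Mbnl2, which encodes a splicing regulator, the hyaluronan receptor gene Cd44, Chchd3, Brinp3, Gk5, Spata17 with Gpatch2, Taf13, a subunit of the general transcription factor TFIID, Haus5, the cystine transporter gene Slc7a11, Abhd10, Srrm2, Utp20, Tedc2 and the predicted gene Gm32856. Zc3h11a, which shares its site with Zbed6, completed them.

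Starts of genes held by CTCF-free sites were less rich in GC than those held by CTCF sites. The promoter windows of 137 transcripts, of 124 genes, lay wholly within a CTCF-free stable site, each running from 250 bases before the start to 50 after it. Their median GC content was 58.7% and their median count of CpG 20, against 65.7% and 26 in 6214 windows within sites with CTCF and 57.0% and 14 in all 20063 listed windows. The CTCF core motif was found in 0.0% of the CTCF-free windows, 4.59% of the CTCF windows and 1.72% of all windows. These sets were split by CTCF calls, so the rule itself bears on this contrast and it is not a result. The CCAAT box was in 48.9%, 33.0% and 38.1% of the same sets, and the GC box GGGCGG in 72.3%, 76.4% and 47.0%. The ETS motif CCGGAAG was in 21.2%, 18.6% and 11.9%, the STAT motif TTCNNNGAA in 10.2%, 4.88% and 7.77%, and the AP-1 motif TGANTCA in 7.30%, 3.43% and 7.06%. CACGTG was in 8.76%, 10.5% and 7.89%. Both strands were searched, transcripts of 1 gene share bases, and a match is a description of these letters only. The summit lay a median of 89.5 bp downstream of the start at 159 CTCF-free sites and 70.5 bp downstream at CTCF sites, and it lay upstream at 20.8% of the former and 35.2% of the latter.

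STAG2 ranked the CTCF-free stable sites higher than STAG1 did in proliferating cells, while the quiescent libraries of the antibodies overlapped. The median percentile of the sites was 17.2 ± 0.78 (SD, n = 2) for STAG1 and 24.3 ± 0.058 for STAG2 in proliferating cells. In quiescent cells it was 14.9 ± 1.02 for STAG1 and 17.2 ± 3.50 for STAG2 (SD, n = 2). By library it was 17.8 and 16.7 in the STAG1 proliferating replicates, 14.2 and 15.6 in the STAG1 quiescent replicates, 24.3 and 24.4 in the STAG2 proliferating replicates and 14.7 and 19.7 in the STAG2 quiescent replicates. At the 2628 sites with CTCF in 1 to 3 lists the median percentile was 21.4 to 22.5 in the STAG1 libraries. There it was 25.8 to 28.9 in the STAG2 libraries, so a higher STAG2 rank was not particular to the CTCF-free sites. At the CTCF-free sites the mean difference between STAG2 and STAG1 was 4.69 percentile points, and that between quiescent and proliferating libraries was −4.75. The second of these was 0.998, of the opposite sign, when every list was shortened to its 20000 strongest peaks. No p-value is given for these medians because the sites were selected as a set with results of these data known.

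By these medians the antibodies lay farther apart away from starts than at starts, a contrast that was not tested. For the 535 sites away from starts the median percentile was 28.7 and 29.4 in the STAG2 proliferating libraries and 14.6 and 23.2 in the STAG2 quiescent libraries, against 19.7, 16.7, 14.2 and 15.6 in the STAG1 libraries. For the 160 sites at starts it lay between 10.3 and 15.1 in all 8 libraries. The median over sites of the STAG2 less STAG1 mean percentile was 6.40 away from starts and 0.37 at starts. STAG2 quiescent replicate 1 placed both kinds alike, at 14.6.

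**Figure D3:**
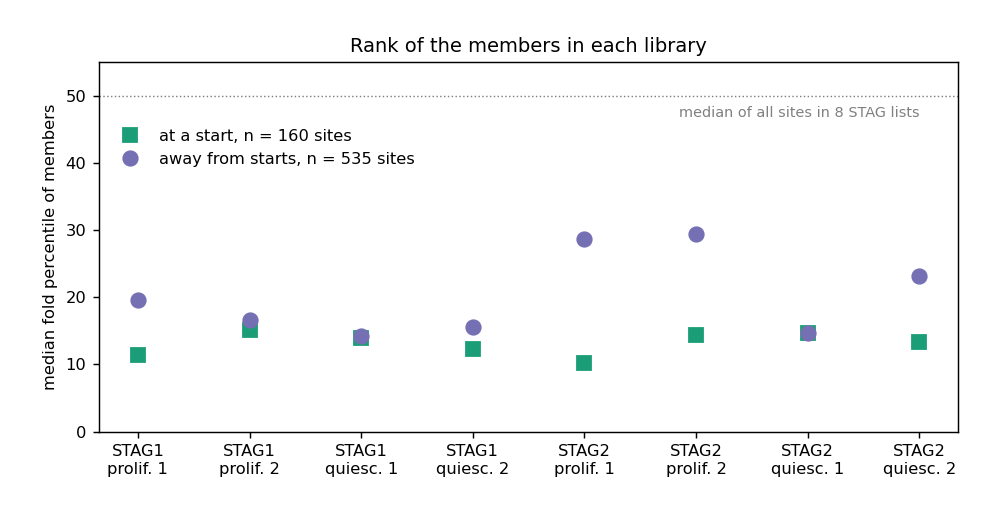
Median fold percentile (vertical axis, 0 to 55 shown) of the CTCF-free stable sites in each STAG library, for 160 sites at a gene start (squares) and 535 away from starts (circles); the dotted line is the median of all sites of 8 STAG lists. The circles of STAG2 in proliferating cells lie at 28.7 and 29.4, and the squares lie between 10.3 and 15.1 in every library.

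Individual sites were compared between the antibodies with limma on ranks turned into normal scores, over all 21383 sites, with state as a term and Benjamini-Hochberg adjustment. A site was called at an adjusted p under 0.05, and differences are in SD of the normal scores, STAG2 less STAG1. Among the CTCF-free stable sites 51 were higher in STAG2, or 7.15%, where the share of all sites called in that direction was 10.7%. Those higher in STAG1 numbered 21, or 2.95%, where the share of all sites was 13.0%. On log2 folds, without the trended prior, and with the 20000 strongest peaks of each list, the share higher in STAG2 was instead above that of all sites (13.6% against 10.5%, 9.82% against 8.08%, and 27.3% against 14.8%). The share higher in STAG1 was below that of all sites in every alternative run. The median difference over the CTCF-free sites was 0.22, against 0.03 over all sites, and 476 of the 713 estimates were positive. All 4 STAG2 percentiles exceeded all 4 STAG1 percentiles at 75 sites, or 10.5% (11.1% of all sites), and the reverse held at 24 sites, or 3.37% (12.8% of all sites). The count higher in STAG2 was 31 without STAG1 proliferating replicate 1 (3.83%, against 6.22% of all sites), 31 without STAG1 quiescent replicate 2 (3.56% against 5.89%), 28 without STAG2 proliferating replicate 2 (3.84% against 7.07%) and 32 without STAG2 quiescent replicate 2 (4.27% against 6.95%). The count higher in STAG1 was 9 without STAG1 quiescent replicate 1 (0.928% against 7.54%) and 10 without STAG1 quiescent replicate 2 (1.15% against 7.77%). The share of all sites called fell with these libraries left out too.

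**Figure D4:**
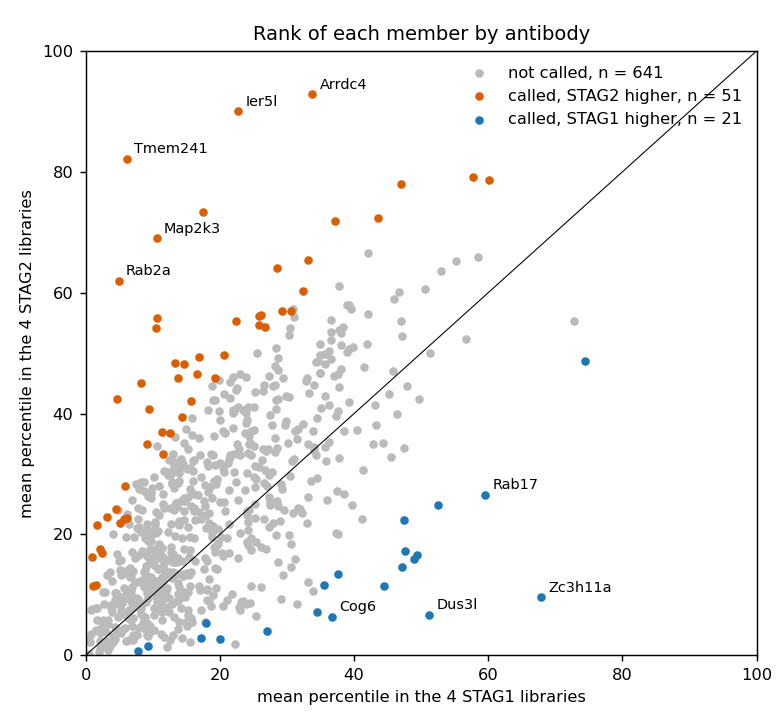
Mean fold percentile of each CTCF-free stable site in the 4 STAG2 libraries (vertical axis) against that in the 4 STAG1 libraries (horizontal axis), coloured by the limma call; the line marks equal ranks and the names are those of the gene at or nearest the site. The sites of Arrdc4 and Ier5l lie near the top, at 92.8 and 90.1 for STAG2, and that of Zc3h11a lies at 67.9 for STAG1 and 9.60 for STAG2.

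The clearest site higher in STAG2 was the start of Arrdc4, an alpha-arrestin gene induced by the glucose-sensing factors MondoA and ChREBP (chr7:68748352-68749611). Folds were 10.0, 16.9, 7.25 and 7.25 in STAG1 and 34.5, 40.8, 52.6 and 31.5 in STAG2. The percentiles were 36.5, 54.7, 23.6 and 20.4 in STAG1 and 89.2, 96.8, 96.2 and 89.0 in STAG2, so the groups did not overlap. The difference was 1.97 (SE 0.20, limma adjusted p = 9.95e-06). The nearest CTCF peak of any list was 42.7 kb away. The related gene Arrdc3 held a CTCF-free site at its start too, with folds of 4.40, 7.20, 7.00 and 7.00 in STAG1 and 5.25, 4.20, 7.50 and 4.80 in STAG2, and a difference of −0.67 that did not pass (limma adjusted p = 0.147).

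Most other named sites higher in STAG2 were not at a listed start, which held for most CTCF-free stable sites. A site 21.6 kb from Ier5l had folds of 9.48, 12.5, 4.91 and 6.04 in STAG1 and 31.6, 34.1, 33.6 and 38.8 in STAG2 (difference 2.17, SE 0.22, limma adjusted p = 1.08e-05). A site within Tmem241 had mean percentiles of 6.13 in STAG1 and 82.2 in STAG2, the widest gap among the 10 most significant (difference 2.61). At a site within Map2k3, a kinase that activates p38, the folds were 4.67, 9.73, 5.37 and 4.95 in STAG1 and 18.7, 20.6, 20.1 and 19.6 in STAG2 (difference 1.84). At these 3 sites every STAG2 percentile was above every STAG1 percentile. The others among the 10 with the lowest adjusted p were near Rab2a (2.16), within Traf3ip2, an adaptor of the interleukin-17 receptor (1.63), within Hsd17b2, a steroid dehydrogenase gene (1.48), near Inhbb, an activin subunit gene (1.46), and near Trim33, a ubiquitin ligase of the SMAD pathway (1.24). The Tcp11l2 start, whose sequence is printed above, had folds of 3.29, 6.75, 4.40 and 5.20 in STAG1 and 13.0, 12.9, 12.1 and 11.4 in STAG2 (difference 1.62, SE 0.32, limma adjusted p = 0.0025). Of the 51 called sites, 8 of 50 with listed starts on their chromosome were at a start.

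The clearest site higher in STAG1 lay at the shared start of Zc3h11a, a zinc finger protein gene of RNA export, and Zbed6, which is encoded within it (chr1:133660628-133661623). Folds were 18.7, 24.2, 17 and 22.3 in STAG1 and 6.29, 6.60, 8.0 and 5.83 in STAG2, and the percentiles of the antibodies did not overlap. The difference was −1.82 (SE 0.25, limma adjusted p = 0.000151). A CTCF peak lay 0.529 kb away, and one lay 0.134 kb from the next site, 2.04 kb from Dus3l, where the difference was −1.57 (folds 11.7, 20.01, 13.0 and 11.7 in STAG1 and 5.84, 5.61, 5.66 and 7.33 in STAG2). The start of Cog6, a Golgi tethering subunit, followed at −1.32, with a CTCF peak 11.5 kb away. Further called sites were near Rab17, within Hdgf, near Sh3bp4 and Slc39a11, at the start of Srrm2, a splicing scaffold gene, near Edn1, which encodes endothelin 1, and 214 kb from Myc. The call was lost for Edn1, Rab17 and Myc without some single libraries, at limma adjusted p between 0.0514 and 0.0643. At the Prorsd1 start, printed above, the folds were low in both, 5.25, 8.0, 5.25 and 5.25 in STAG1 and 3.20, 3.20, 3.80 and 6.0 in STAG2 (difference −1.23, SE 0.34, limma adjusted p = 0.0182). Of the 21 called sites, 5 of 20 with listed starts on their chromosome were at a start. That is 25.0%, near the 23.0% over the CTCF-free stable sites.

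No CTCF-free stable site passed the test between quiescent and proliferating cells. Every site tested had a call in all STAG libraries of both states, so sites gained or lost between states were left out beforehand. The test bears only on changes of rank among sites held in both states. The limma fit, with antibody as a term, called 0 of 713 in each direction, where the shares of all sites called were 0.0234% higher and 0.014% lower in quiescent cells. At an unadjusted p under 0.05, 16 sites, or 2.24%, were higher in quiescent cells (5.07% of all sites), and 86, or 12.1%, were lower (4.93% of all sites). All 4 proliferating percentiles exceeded all 4 quiescent ones at 42 sites, or 5.89% (1.66% of all sites), and the reverse held at 6 sites, or 0.842% (1.64% of all sites). The median difference was −0.15 over the CTCF-free sites and −0.01 over all sites. The lowest p belonged to a site 188 kb from Cdk6, a kinase of the G1 phase, with folds of 6.47 and 14 in proliferating and 3.25 and 4.25 in quiescent STAG1 libraries, and 10.8 and 13.8 against 5.75 and 6.0 for STAG2 (difference −1.66, limma adjusted p = 0.0904). The next were 216 kb from Dusp4, a phosphatase of MAP kinases (−1.28, limma adjusted p = 0.224), and within Dip2b (−1.11, limma adjusted p = 0.231). In the other direction the lowest p values were those of the start of Cox7c, a subunit of cytochrome c oxidase (1.24), a site near Ppp2r5a (0.91) and a site within Plekhg1 (0.68), with limma adjusted p of 0.3, 0.314 and 0.347. A term for a different change of state in STAG1 and STAG2 called 0 of 21383 sites, and an unadjusted p under 0.05 was reached in the positive direction by 7 CTCF-free sites, or 0.982% (2.53% of all sites), and in the negative direction by 24, or 3.37% (2.14% of all sites).

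Several CTCF-free stable sites stood in groups. With gaps of up to 50 kb between neighbours, 172 sites formed 75 groups and 541 stood alone, and 59 of the groups were pairs. The one group of 7 lay within Smad3, which encodes a signal transducer of TGF beta, over 73.9 kb (chr9:63674337-63748256). Its sites stood 10.1, 11.4, 31.3, 39.2, 41.8, 58.8 and 83.3 kb downstream of the start of a gene that is 111 kb long. The strongest, 41.8 kb downstream (chr9:63715794-63716654), had folds of 17.5, 25.3, 10.2 and 11.7 in STAG1 and 19.9, 19.9, 14.6 and 20.4 in STAG2 and a mean percentile of 60.2. The site 83.3 kb downstream followed with a mean percentile of 39.3, and the other 5 lay between 13.4 and 28.0. STAG1 and STAG2 overlapped at the strongest site, and the antibody difference there, 0.27, did not pass the test (limma adjusted p = 0.316). The nearest CTCF peaks were 1.46 to 8.77 kb from the 7 sites.

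**Figure D5:**
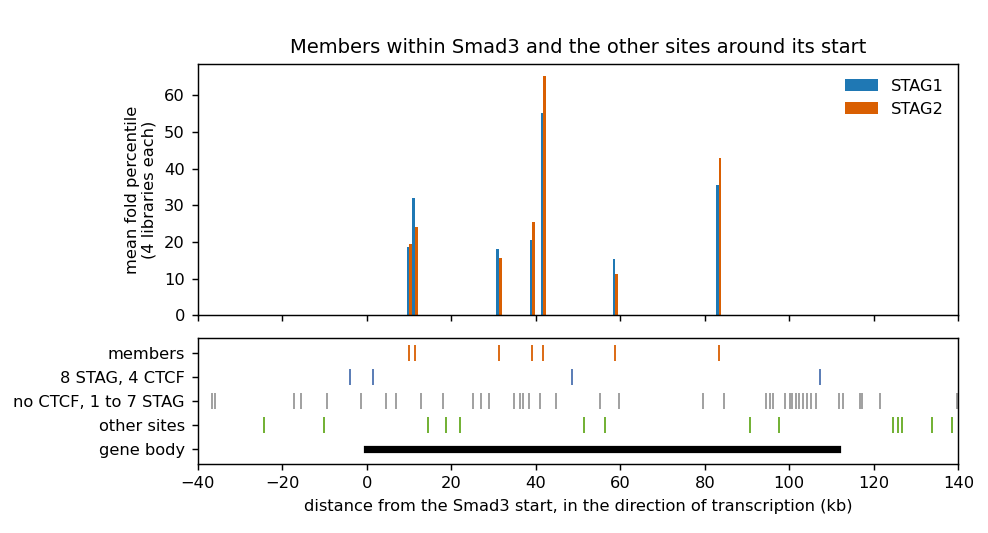
Upper panel, mean fold percentile in the 4 STAG1 and the 4 STAG2 libraries of the 7 CTCF-free stable sites within Smad3, by distance from its start in kb. Lower panel, positions of these sites, of sites with all 8 STAG and 4 CTCF lists, of CTCF-free sites in fewer STAG lists and of other sites, with the gene body as a bar; the strongest site stands 41.8 kb downstream of the start.

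Groups of 4 lay near Sh3bp4 and near Trib1, which encodes a pseudokinase that directs protein degradation. The 13 groups of 3 included 1 near 1600014C23Rik, nearest to 2 of its sites, and Vegfa, an angiogenic factor gene nearest to 1. Others stood near the transcription factor genes Sox4 and Foxq1, near Lif, a cytokine gene, and near Zfp36l2, which encodes a factor of mRNA decay. Further ones were near Irf2bpl, around Krt8 and Krt18, and near Slc39a11. Counted by nearest gene without a gap limit, Smad3 had 7 sites, Slc39a11 5, and Myc, Sh3bp4, Tle3, Trib1 and Zmiz1 4 each.

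Genes in or nearest to a CTCF-free stable site were counted in lists of known function, chosen with earlier results of these data known. Of all 20665 protein-coding genes on autosomes, 624, or 3.02%, were in or nearest to such a site. The count was 6 of 17 for the TGF beta and SMAD list (Smad3, Smad7, Id1, Id2, Tgif1 and Pmepa1), 10 of 27 for urothelial differentiation, 5 of 25 for MAPK feedback and EGF receptor ligands (Spry1, Spry2, Dusp4, Phlda1 and Tgfa), 5 of 24 for immediate early and AP-1 factors (Atf3, Ier5, Jun, Junb and Myc), 4 of 20 for CDK inhibitors and growth arrest (Foxo3, Gadd45a, Gadd45g and Rb1) and 4 of 18 for the circadian clock (Arntl, Bhlhe40, Bhlhe41 and Hlf). A gene far from its neighbours is the nearest to more sites than a gene in a dense region, so these counts are no enrichment.

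In the TGF beta and SMAD list, 13 sites were in or nearest to the 6 genes, 0 of them at a start. Id1 and Id2 encode inhibitors of basic helix-loop-helix factors, Smad7 and Pmepa1 feedback inhibitors of the pathway and Tgif1 a corepressor of SMAD proteins. Of the 13 sites, 1 was called higher in STAG2, 0 higher in STAG1, and 9 estimates were positive. Counts this small, here and in the lists that follow, are to be read against the 10.7% and 13.0% of all sites called higher in STAG2 and in STAG1, and nothing is read from them about a list. The called site stood 35.0 kb from Tgif1, with folds of 9.25, 7.40, 7.56 and 6.20 in STAG1 and 19.8, 13.0, 12.3 and 12.0 in STAG2 (difference 0.86, limma adjusted p = 0.0301). The STAG1 and STAG2 percentiles of that site did not overlap. A site 121 kb from Id2 had folds of 15.9, 13.2, 12.1 and 10.6 in STAG1 and 15.1, 13.6, 16.2 and 23.8 in STAG2, with a difference of 0.36 that did not pass.

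In the urothelial differentiation list 12 sites were in or nearest to 10 genes, and 1, at Krt20, a keratin gene of umbrella cells, was at a start. Folds at Krt20 were 7.55, 6.35, 5.14 and 6.0 in STAG1 and 11.8, 8.16, 8.16 and 6.34 in STAG2. The site had a low mean percentile of 16.3, and the antibodies overlapped. The others were within Rxra, the partner receptor of PPAR gamma, and within or near the simple-epithelium keratin genes Krt8 and Krt18. For transcription factor genes, sites stood 236 kb from Gata3, 11.0 and 265 kb from Klf5, 32.9 kb from Grhl2 and 7.50 kb from Irf1. Sites also stood 3.99 kb from Cldn4 and 25.7 kb from Epcam, which encode proteins of epithelial contacts. At Rxra the folds were 9.98, 9.34, 13.5 and 9.0 in STAG1 and 15.5, 12.0, 17.5 and 12.0 in STAG2, with the highest mean percentile of the list, 42.7. The limma test called 0 of the 12 sites in either direction (adjusted p from 0.112 to 0.924), and 9 estimates were positive. In the basal urothelium list a site stood at the Cd44 start, with a mean percentile of 39.3.

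In the cell cycle lists the counts of genes in or nearest to such a site were 0 to 2, and at lists of this size nothing is read from them against the 3.02% of all genes. Of 39 G1/S genes bound by DREAM, the complex that represses cell cycle genes in quiescence, 2 were in or nearest to a CTCF-free stable site: Mcm3, a subunit of the replicative helicase, at its start, and Gmnn, the inhibitor of replication licensing, within the gene. Folds at Mcm3 were 6.80, 9.60, 6.34 and 6.34 in STAG1 and 5.50, 7.80, 10.4 and 10.4 in STAG2, a difference of 0.02. The count was 0 of 39 G2/M genes, 0 of 13 DREAM and MuvB subunits, 0 of 14 genes of cohesin, its regulators and Ctcf, and 0 of 20 PPAR gamma targets of lipid metabolism. Of 80 ribosomal protein genes 4 were counted (Rps19 and Rps26 at their starts, Rpl21 and Rplp1), and of 18 heat shock and unfolded protein genes 1, Hspa5, the chaperone BiP, at its start with folds of 6.65, 13.0, 6.0 and 8.0 in STAG1 and 7.05, 7.70, 11.0 and 8.79 in STAG2. The other counts were 2 of 12 MondoA targets and alpha-arrestins (Arrdc3 and Arrdc4), 2 of 16 YAP and TEAD targets (Amotl2 and Tead1), 2 of 17 p53 targets (Ddit4 and Gadd45a), 1 of 16 NF-kappaB targets (Nfkbia) and 1 of 12 Notch pathway genes (Hes1, with 3 sites). For genes of transcription pausing and elongation (22), PML bodies and SUMO (18), replication-dependent histones (63) and olfactory receptors (1100), and for the marker genes of fibroblasts (7), immune cells (6) and neurons (4), the count was 0.

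In the immediate early list 8 sites were counted, with 1 called higher in STAG1, 214 kb from Myc, and 0 higher in STAG2. A different site, 579 kb from Myc (chr15:62569061-62569828), was the strongest of the list, with folds of 10.6, 11.7, 15.9 and 20.8 in STAG1 and 17.8, 12.4, 17.4 and 21.1 in STAG2. In the MAPK list 0 of 7 sites were called, and the strongest, 35.0 kb from Phlda1, had a mean percentile of 58.2. In the circadian list 1 of 4 sites was called, higher in STAG1, 1.74 kb from Bhlhe41, which encodes a repressor of clock genes. Its folds were 5.00, 7.00, 4.00 and 6.34 in STAG1 and 4.40, 3.40, 4.40 and 3.60 in STAG2 (difference −1.08, limma adjusted p = 0.0265).

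The order of the CTCF-free stable sites was held less closely between libraries than that of the other sites of all 8 STAG lists. Spearman's rho across the 713 sites ran from 0.307 to 0.707 over the 28 pairs of libraries, and across the other sites from 0.555 to 0.914. The sites share libraries and span a narrow range of strength, so the correlations are descriptive. By chromosome, the CTCF-free sites made up from 1.74% (chromosome 19, 14 of 803) to 5.76% (chromosome 13, 45 of 781) of the sites of all 8 STAG lists.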

How the data were processed

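BWA, Picard, MACS2, HOMER and bcl2fastq were used with build mm10, per the submitters' processing notes. Versions and settings are not given in the sources used here. For each library, the authors deposited 1 peak list, with a fold enrichment (a ratio over background) and a −log10 q per peak and, per the peak names, a library and input marked as normalised without explanation. These folds are the authors' own and were ranked only within a library.

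Sites were merged peaks of the 12 lists on 19 autosomes, with an overlap of at least 1 bp. Percentiles were computed over the 21383 sites held in all 8 STAG lists, and their normal scores were fitted in limma 3.58.1 (R 4.3.3) with antibody and state as terms, a trended prior and Benjamini-Hochberg adjustment, with the fit checked on simulated data. Depth is unknown from the lists. The p-values rest on the residual spread of 8 libraries, which holds both the differences between the 2 replicates of each group, called biological by the labels, and any effect of antibody and state together, and on variances borrowed across sites. Starts came from a RefSeq promoter table of GRCm38.p6, which is mm10, that listed 79.6% of the autosomal protein-coding genes and none on chromosome 18 (18 of the sites), and gene bodies and ends from the gene table. No genome sequence was used, so sites away from starts have no printed sequence.

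The sites, the lists and the motifs were chosen with earlier results of these data known. Named sites are the 10 of highest mean percentile, the 20 highest at starts, the 10 of lowest adjusted p in each direction (or the 3 of lowest p where none passed), those farthest from CTCF, and those at starts of listed genes. Other sites nearest to listed genes, the groups and the Prorsd1 start were named after their values were seen. Some sites that this rule names are not reported here. A p-value for medians over the sites had been planned and is not given. Replicate numbers were not used to pair the libraries in the main fit. The correlation of same-numbered deviations between STAG1 and STAG2 was 0.307 in proliferating and 0.152 in quiescent cells. Between groups of different state it ran from −0.157 to 0.0216. With 2 replicates per group these values cannot settle whether libraries of the same number share a preparation, which was not tested.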

Additional observations from a re-analysis of the deposited data

Results flagged for a closer look

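Chromosome X lay outside the autosomes to which the sites were limited. There, 12 sites met the same rule, out of 279 sites in all 8 STAG lists on that chromosome, or 4.30%, against 3.33% on the autosomes. They drew attention because they carry the same calls in data that the comparisons did not use.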

How the results depend on the processing

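The number of CTCF-free stable sites stayed within 1.5 times of 713 under every alternative run, between 555 and 1052, and between 729 and 970 without single libraries. Their share at gene starts was 32.2% with peaks of a −log10 q of at least 5, 54.7% with the 20000 strongest peaks of each list, 26.5% for both gene ends of the gene table (chosen after seeing the data), and between 21.3% and 28.5% without single libraries. With the 20000 strongest peaks the quiescent less proliferating median rank reversed to 0.998; the cause was not tested. The median rank of STAG2 less STAG1 kept its sign in every alternative run. The count of sites higher in STAG2 was 287 of 1052 with the 20000 strongest peaks, where the share called of all sites was 14.8%, 97 on log2 folds (13.6%, against 10.5% of all sites), and between 28 and 72 without single libraries (5.89% to 14.6% of all sites). Without the trended prior it was 70 (9.82% against 8.08%). The count higher in STAG1 was 13 with sites in at least 6 STAG lists (1.82% against 9.79%), and between 9 and 30 without single libraries (7.54% to 16.2% of all sites). For proliferating above quiescent it was 1 with the 20000 strongest peaks (0.0951%, against 0.0272% of all sites) and 0 in every other alternative run. With the replicate number as a block, 54 sites (7.57%, against 11.0% of all sites) were higher in STAG2 and 21 (2.95% against 13.4%) in STAG1. In that run 0 differed between the states, where 0.0468% of all sites were called higher and 0.0234% lower in quiescent cells. Of 389 alternative values for 20 named sites, 382 kept direction and call, 7 (for Edn1, Rab17 and Myc) lost the call, and 0 reversed. A further 31 values are missing because the named site was not in the fit: with the 20000 strongest peaks 1 site (Hdgf) had a value, with a −log10 q of at least 5 it was 13, and with the shared core 15. The run without CTCF peaks within 1 kb used the main fit unchanged. Runs leaving out a CTCF list changed it little, with Arrdc4 at 1.9673 to 1.9675. Values of the named sites in these runs could therefore hardly differ. The 20 sites also had the lowest adjusted p in these same data, 10 in each direction. The 382 values that kept the call are thus no separate support for them. Depth is unknown, and the 2 replicates per group limit which sites could be called.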
